A study of Drosophila melanogaster with 19 samples.

Results

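The genes described here are those whose mean signal was higher in pupal notums expressing E(spl)m3-HLH than in notums expressing green fluorescent protein (GFP), but not in notums expressing Asense or Achaete together with Senseless. The 13647 probe sets that name 1 gene, among 18769 in all, stand for 11982 different genes, and 47 of these genes met the rule, each through 1 probe set. The rule asked for a log2 difference from GFP of at least 0.5 with E(spl)m3-HLH, a difference under 0.25 with Asense and with Achaete plus Senseless, and a mean log2 signal of at least 5 with E(spl)m3-HLH. These groups chose the genes, so their values are given as a description with no test. The groups the rule did not use, Achaete alone, Senseless alone and Asense plus E(spl)m3-HLH, carry the tests.

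The study measured RNA on Affymetrix arrays in the notum, the dorsal thorax epithelium of the fly, dissected from Drosophila melanogaster pupae 16 h after puparium formation. All 7 groups carried sca-Gal4, which follows the regulatory sequences of scabrous, and tub-Gal80ts, a temperature-sensitive inhibitor of Gal4, and differed in the UAS transgene. These were UAS-E(spl)m3-HLH (m3, 3 arrays), UAS-Ase with UAS-E(spl)m3-HLH (Ase+m3, 2 arrays), UAS-Ac (Ac, 2 arrays), UAS-Sens (Sens, 3 arrays), UAS-Ase (Ase, 3 arrays), UAS-Ac with UAS-Sens (Ac+Sens, 3 arrays) and UAS-GFPnls (GFP, 3 arrays). Crosses grew at 18 °C and spent the last 6 h before dissection at 29 °C, and each array held RNA pooled from 8 to 12 notums. RNA came from whole notums although the driver follows the pattern of 1 gene, and in such bulk samples fewer cells of a type and less RNA per cell cannot be told apart. Signals are log2 values, so a difference of 1 is a doubling. A gene's level is given array by array in the order of the replicate numbers, and a value listed at exactly 0 was treated as missing.

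E(spl)m3-HLH is a basic helix-loop-helix-Orange protein of the Enhancer of split complex, whose genes are transcribed when the Notch receptor is activated. These proteins recruit the corepressor Groucho and oppose the proneural factors Achaete and Scute, and so keep cells next to a sensory organ precursor from taking the same fate. Asense and Senseless act on the opposite side, in the precursor that gives rise to a bristle.

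Several arrays limit what can be read. On the array labelled Sens replicate 1, sens stood at 7.38 against 10.76 and 10.75 on the other Sens arrays, and the proneural gene sc at 10.63 against 7.17 and 6.84, so both genes went against the label. The sc level on this array was near that of the Ac arrays, 10.37 and 10.42, and the array counts as Sens below unless stated. The second Ase+m3 array stood apart, since its Spearman correlations with the others had a median of 0.890, where those of the remaining arrays were 0.964 to 0.987. On 4 arrays, replicate 3 of m3, Sens, Ase and Ac+Sens, 60.3 to 60.6% of probe sets were listed at 0. Because of this, 24 members had a value on all 19 arrays, 9 lacked 1 to 3 values and 14 lacked all 4, and 15 members rest on 2 m3 arrays in place of 3. The E(spl)m3-HLH probe set gave 11.06, 11.06 and 11.19 on the m3 arrays, against 11.08, 11.03 and 11.03 on the GFP arrays, and does not check the m3 label. The ase probe set gave 5.05 and 4.44 on the Ase+m3 arrays, against 5.58, 5.23 and 5.15 on the GFP arrays, and the ac probe set 6.74 and 6.87 on the Ac arrays, against 7.27, 7.03 and 6.63 on the GFP arrays. On the Ase arrays that measured it, ase stood at 5.45 and 5.68. The ase and ac probe sets do not check the Ase+m3, Ase and Ac labels either, and the place of the probes relative to the transgenes is not known from the labels. The sc probe set, high on both Ac arrays, stood at 10.17, 10.05 and 10.77 on the Ac+Sens arrays and 7.28, 7.04 and 6.95 on the GFP arrays.

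The m3 minus GFP difference ran from 0.50 to 3.50 with a median of 0.62, and most members lay near the lower bound. It was at least 2 in 5 members, at least 1 in 11 and at least 0.7 in 18, which leaves 29 under 0.7. The members just inside the bound were Gpdh1, a glycerol-3-phosphate dehydrogenase (0.50), Rbm13, a nucleolar RNA-binding protein (0.51), and CG33465 (0.51), and those just outside were CG11147, CG14401 and sage (each 0.50 when rounded). For the Ase bound, CG13361, Sema5c and l(3)neo38 (each 0.24) lay inside, and CG8112 (0.25), Cht6 (0.27) and Lrch (0.28) outside. For the Ac+Sens bound, CG4115 (0.20), CG14937 (0.20) and Ptp69D (0.18) lay inside, and Mipp1 (0.26), Psa (0.26) and Swim (0.27) outside. For the m3 mean, Cubn (5.04), MtnB (5.11) and Atf3 (5.17) lay inside, and antr (4.80), Cpr76Bc (4.72) and CG12071 (4.62) outside. All m3 arrays lay above all GFP arrays in 34 members (72.3%), against 21.3% of all probe sets, a comparison the choice of members favours. In 13 members all m3 arrays lay above every other array of the series, against 1.36% of all probe sets, which the choice favours too. The members differed among m3 arrays, since m3 replicate 1 was the lowest m3 array in 38 of the 47. Of the 47 members, 15 have only 2 m3 values. The same count over all probe sets is not given here, so this describes the arrays and is no trait of the members.

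**Figure D1:**
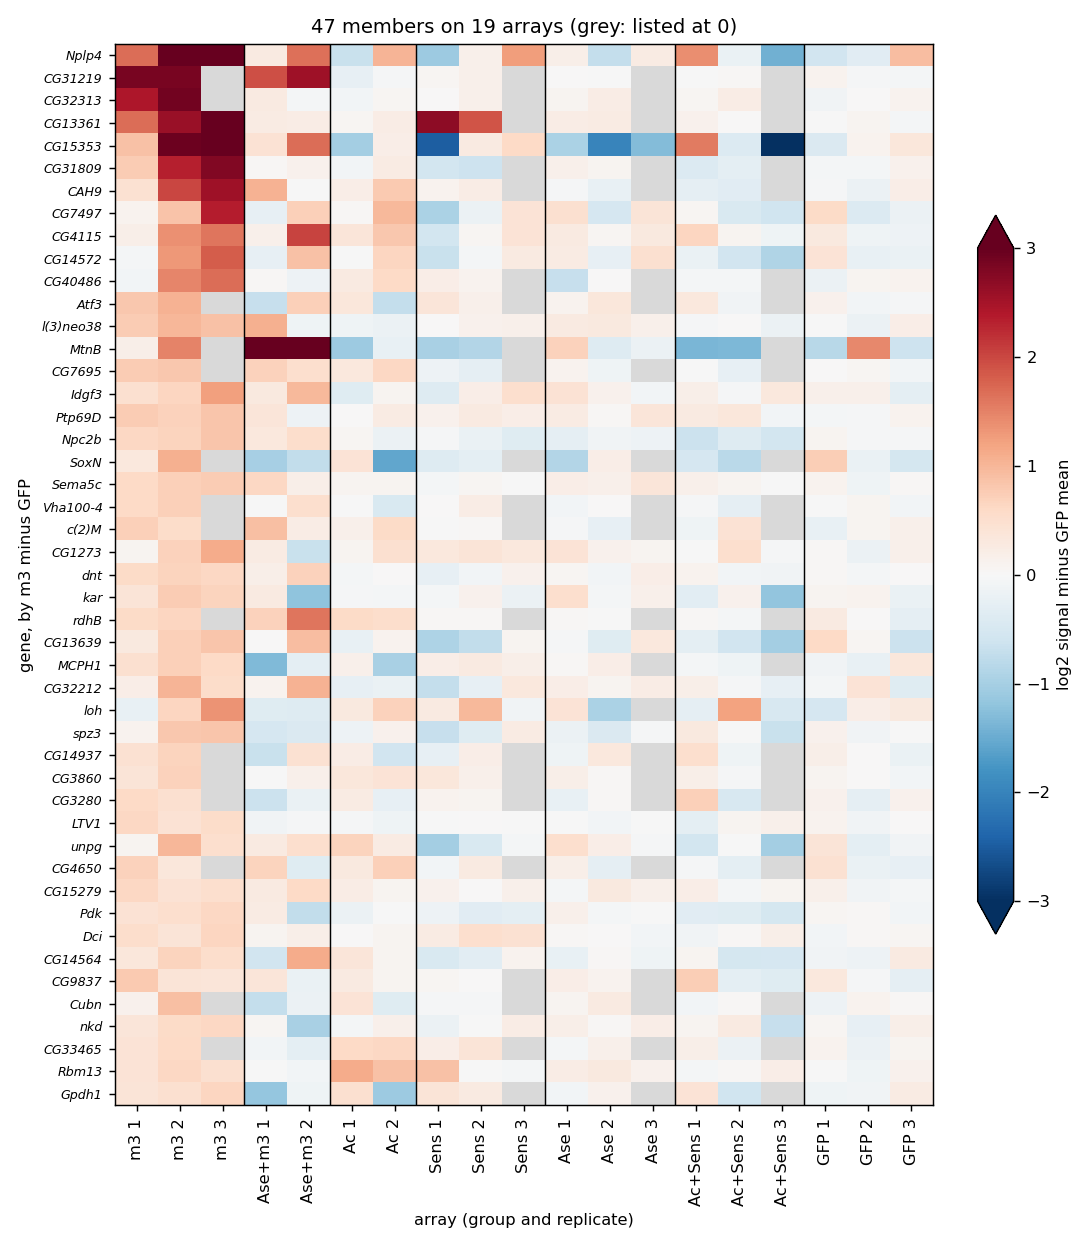
Log2 signal minus the GFP mean (colour scale, log2 units, limited to 3 in either direction) of the 47 members (one line each, ordered by m3 minus GFP) on the 19 arrays grouped by transgene, with values listed at 0 in grey. The m3 columns are red because the rule chose the genes there, m3 replicate 1 is paler than the other m3 arrays for 38 members, and the Ase+m3 columns are red for CG31219 and MtnB on both arrays.

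Of the 47 genes, 5 encode secreted or matrix proteins. Nplp4, which encodes a neuropeptide-like precursor, stood at 8.28, 10.93 and 11.06 on the m3 arrays, 6.86 and 8.25 on the Ase+m3 arrays, 5.92 and 7.62 on the Ac arrays, 5.51, 6.75 and 7.84 on the Sens arrays, 6.77, 5.88 and 6.85 on the Ase arrays, 7.98, 6.41 and 5.15 on the Ac+Sens arrays and 6.02, 6.26 and 7.51 on the GFP arrays. Its m3 arrays lay above every other array, replicate 1 only just, and the other groups overlapped. Nplp4 had the largest difference of all members, 3.50, an 11.3-fold higher mean in m3 than in GFP. Idgf3, a chitinase-like growth factor, was at 6.70, 6.86 and 7.44 in m3, 6.50 and 7.19 in Ase+m3 and 6.36, 6.37 and 5.91 in GFP, with m3 above GFP on all arrays. CG4115, a C-type lectin-like gene, was at 8.07 ± 0.76 in m3 and 7.02 ± 0.25 in GFP (SD, n = 3 each), and its Ase+m3 arrays were far apart, at 7.16 and 9.05. The ADAMTS-like gene loh and the Spätzle-family ligand gene spz3 differed by less, 0.58 each, and their m3 and GFP arrays overlapped.

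The 5 receptor and signalling genes had m3 minus GFP differences of 0.51 to 0.76. Ptp69D, a receptor tyrosine phosphatase of axon guidance, stood at 8.02, 7.96 and 8.09 on the m3 arrays, 7.63 and 7.12 on the Ase+m3 arrays and 7.22, 7.23 and 7.36 on the GFP arrays. The m3 arrays were tight and lay above all others for this gene. The transmembrane semaphorin gene Sema5c was at 10.18 ± 0.09 in m3 and 9.50 ± 0.12 in GFP, and dnt, a Ryk-family Wnt receptor gene, at 9.23 ± 0.05 in m3 and 8.61 ± 0.06 in GFP (SD, n = 3 each). The Wingless antagonist gene nkd was at 9.20 ± 0.13 in m3 and 8.69 ± 0.22 in GFP (SD, n = 3 each), and Cubn, for an endocytic receptor of the cubilin family, was at 5.04 ± 0.55 in m3 and 4.53 ± 0.14 in GFP (SD, n = 2 and 3).

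Of the 4 transcription factor genes, l(3)neo38, for a zinc finger protein, was at 7.31 ± 0.12 in m3 and 6.44 ± 0.19 in GFP (SD, n = 3 each). Atf3, for a basic leucine zipper factor, was at 5.05 and 5.30 in m3 and at 4.36, 4.16 and 4.21 in GFP. SoxN, a SoxB gene of the nervous system and of trichome patterning, was at 5.38 ± 0.54 in m3 and 4.69 ± 0.65 in GFP (SD, n = 2 and 3), and the arrays of these groups overlapped. The homeodomain gene unpg overlapped as well, with 6.25 ± 0.46 in m3 and 5.72 ± 0.35 in GFP (SD, n = 3 each).

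Metabolic and transport genes made up 9 members. CAH9, a carbonic anhydrase gene, stood at 3.96, 5.51 and 6.05 on the m3 arrays, 4.55 and 3.48 on the Ase+m3 arrays, 3.70 and 4.28 on the Ac arrays and 3.47, 3.33 and 3.71 on the GFP arrays. Its m3 replicate 1 lay above GFP but below 1 array each of Ase+m3 and Ac. Npc2b, of a family of sterol-binding proteins, stood at 9.76, 9.80 and 9.97 on the m3 arrays, 9.46 and 9.67 on the Ase+m3 arrays, 9.19 and 8.96 on the Ac arrays, 9.09, 8.93 and 8.76 on the Sens arrays and 9.22, 9.10 and 9.09 on the GFP arrays. The m3 arrays were the highest and the Ase+m3 arrays came next, with no overlap with the rest. The V-ATPase subunit gene Vha100-4, the monocarboxylate transporter family gene kar, the retinol dehydrogenase gene rdhB, the pyruvate dehydrogenase kinase gene Pdk, the fatty acid oxidation gene Dci and Gpdh1 differed by 0.50 to 0.65 between m3 and GFP.

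MtnB, which encodes a metallothionein, a small metal-binding protein, behaved unlike the rest. It stood at 4.45 and 5.77 on the m3 arrays, 7.54 and 7.38 on the Ase+m3 arrays, 3.20 and 4.06 on the Ac arrays, 3.30 and 3.41 on the Sens arrays, 4.97, 3.90 and 4.09 on the Ase arrays, 2.91 and 2.94 on the Ac+Sens arrays and 3.45, 5.73 and 3.65 on the GFP arrays. GFP replicate 2 was as high as the higher m3 array, so m3 and GFP overlapped, while both Ase+m3 arrays lay above every other array.

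The 4 nuclear genes differed by 0.51 to 0.64. LTV1, for a factor of small ribosomal subunit assembly, stood at 9.75, 9.56 and 9.69 on the m3 arrays, 9.02 and 9.10 on the Ase+m3 arrays and 9.24, 9.03 and 9.14 on the GFP arrays. Its m3 arrays lay above all others by a small and even margin. MCPH1, the fly microcephalin gene, was at 6.10 ± 0.11 in m3 and 5.50 ± 0.30 in GFP (SD, n = 3 each), and c(2)M, of the synaptonemal complex, at 5.22 ± 0.13 in m3 and 4.59 ± 0.20 in GFP (SD, n = 2 and 3).

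The other 20 members bear only CG numbers, with no role given here, and they include 4 of the 5 largest differences. CG31219 stood at 5.81 on both m3 arrays that measured it, 4.89 and 5.51 on the Ase+m3 arrays, 2.72 and 2.93 on the Ac arrays, 3.03 and 3.13 on the Sens arrays and 3.07, 2.92 and 2.91 on the GFP arrays. CG32313 stood at 5.20 and 5.67 on the m3 arrays, 3.05 and 2.71 on the Ase+m3 arrays, 2.69 and 2.84 on the Ac arrays, 2.79 and 2.92 on the Sens arrays and 2.67, 2.78 and 2.88 on the GFP arrays. Both genes were dim outside m3, but CG31219 was high on both Ase+m3 arrays, while for CG32313 these arrays overlapped GFP. CG13361 stood at 4.89, 5.80 and 6.48 on the m3 arrays, 3.46 and 3.44 on the Ase+m3 arrays, 3.27 and 3.43 on the Ac arrays, 5.89 and 5.10 on the Sens arrays and 3.19, 3.29 and 3.15 on the GFP arrays. The Sens arrays that measured it, the one labelled replicate 1 included, lay within the m3 range, and all Ase+m3, Ac, Ase, Ac+Sens and GFP arrays lay below both.

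CG15353 stood at 10.14, 12.20 and 12.29 on the m3 arrays, 9.69 and 10.95 on the Ase+m3 arrays, 8.25 and 9.46 on the Ac arrays, 6.80, 9.53 and 9.86 on the Sens arrays, 10.81, 8.85 and 6.22 on the Ac+Sens arrays and 8.83, 9.36 and 9.61 on the GFP arrays. All its m3 arrays lay above GFP, but the spread within Sens and Ac+Sens was wider than the m3 minus GFP difference of 2.28. CG31809 stood at 4.47, 6.05 and 6.49 on the m3 arrays, 3.75 and 3.84 on the Ase+m3 arrays and 3.65, 3.65 and 3.85 on the GFP arrays, with m3 above every other array. CG7695 stood at 5.88 and 5.92 on the m3 arrays, 5.80 and 5.60 on the Ase+m3 arrays, 5.44 and 5.73 on the Ac arrays, 4.95 and 4.83 on the Sens arrays and 5.12, 5.18 and 5.03 on the GFP arrays. Its Ac and Ase+m3 arrays overlapped, both above Sens and GFP. CG7497, CG14572 and CG40486 differed by 1.10, 1.02 and 1.02, and in each of them m3 replicate 1 lay within the GFP range.

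**Figure D2:**
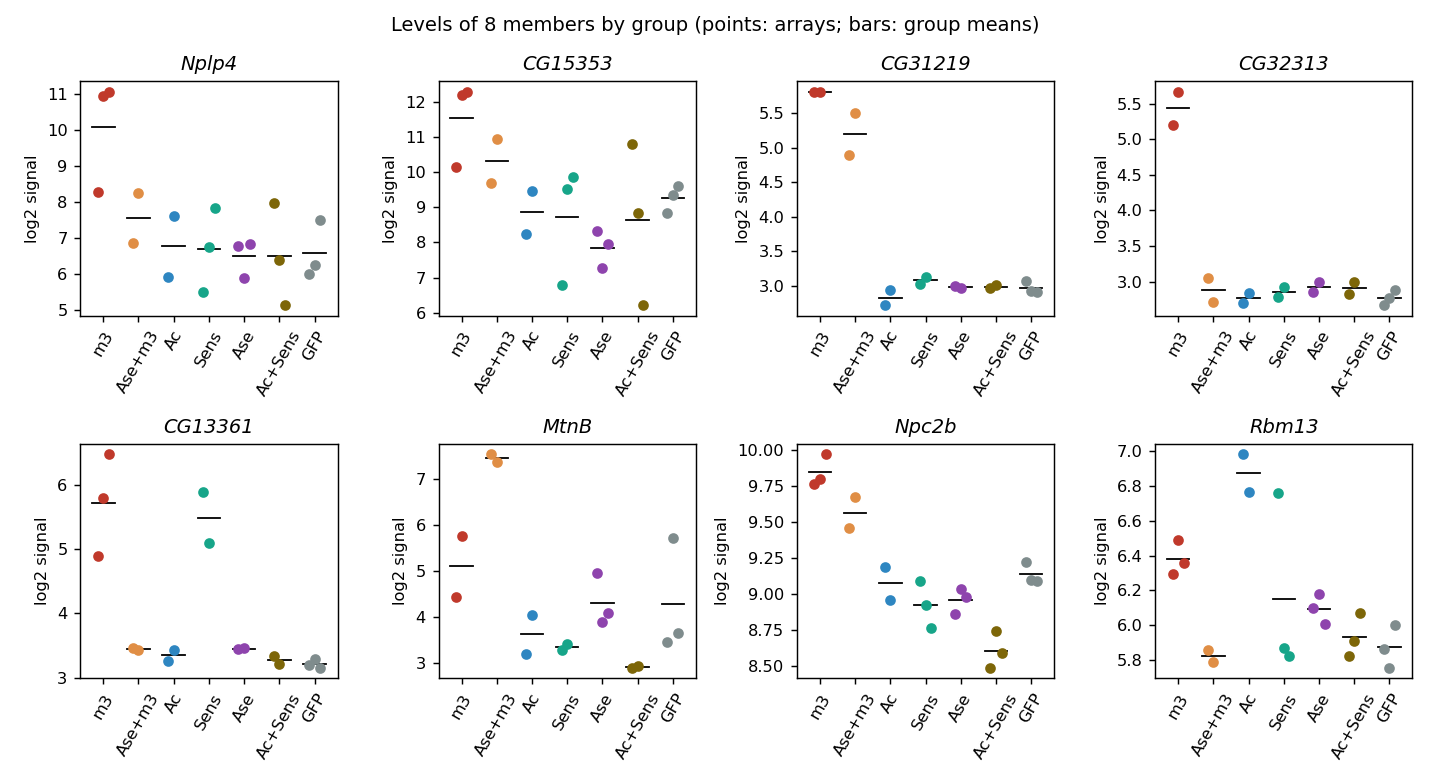
Log2 signal (vertical axes) of 8 members by transgene group (horizontal axes), with a point for each array that has a value and a bar at the group mean. CG31219 is high in m3 and Ase+m3, CG13361 in m3 and Sens, MtnB in Ase+m3, and Rbm13 in Ac and on the array labelled Sens replicate 1.

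Where a member gene had further probe sets, these differed by less between m3 and GFP. The 10 further probe sets of 6 genes had differences of 0.05 to 0.45. For l(3)neo38 they gave 0.24, 0.27 and 0.45 against 0.87 for the member probe set, for Gpdh1 0.05, 0.13 and 0.35 against 0.50, and for Idgf3, MCPH1, Pdk and CG40486 they gave 0.15, 0.23, 0.27 and 0.05. Those of CG40486 (means of 2.43 in m3 and 2.38 in GFP) and Idgf3 (3.39 and 3.24) were dim, so a small difference there says little. For l(3)neo38 the Ase+m3 minus GFP differences of the further probe sets were −0.60, −1.18 and −0.72, against 0.47 for the member probe set. The gene-level statement therefore rests on 1 probe set for these genes.

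Asense plus E(spl)m3-HLH contains the same repressor and was not used in the choice. Ase+m3 was compared with Ac and with Sens, in 1 limma model over all probe sets with Benjamini-Hochberg adjustment, and a call is an adjusted p under 0.05. Against Ac, 2 members rose, where 0.634% of all probe sets did, and 2 fell, where 0.432% did. Of the 1-gene probe sets with an m3 mean of at least 5, 0.482% rose and 0.61% fell. Together these are 8.51% of members against 1.07% of probe sets, but the median difference was 0.02 for members and 0.05 for all probe sets. At an unadjusted p under 0.05 there were 13 members (27.7%), against 22.4% of all probe sets. Among probe sets measured on all arrays, the medians were 0.07 for the 24 members and −0.05 for all. With probe sets of a mean under 5 left out, they were 0.004 for 33 members and −0.05 for all. So a few members differed strongly from Ac, and the median difference of the members was small.

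CG31219 rose by 2.37 (SE 0.16, limma adjusted p = 1.67e-05) and MtnB by 3.83 (SE 0.64, adjusted p = 0.0212). Whether their signals in Ac lay above background was not tested, so these sizes are differences of deposited signals. Rbm13 fell by 1.05 (SE 0.22, limma adjusted p = 0.0370). It stood at 5.85 and 5.79 on the Ase+m3 arrays against 6.98 and 6.76 on the Ac arrays, and its m3 arrays, at 6.29, 6.49 and 6.36, lay between. CG33465 fell by 0.80 (SE 0.15, limma adjusted p = 0.0372), with 4.67 and 4.47 on the Ase+m3 arrays against 5.36 and 5.37 on the Ac arrays. Both lower members had higher means in Ac than in m3, at 6.87 against 6.38 for Rbm13 and 5.37 against 5.27 for CG33465. The calls of Rbm13 and CG33465 lay close to the threshold. Each was lost in 10 of the 19 fits that leave out 1 array, several of them arrays of other groups, with limma adjusted p-values of 0.0517 to 0.186 for Rbm13 and 0.0534 to 0.152 for CG33465. Without Ase+m3 replicate 2 the differences were −1.02 and −0.70 (adjusted p = 0.0517 and 0.0604). MtnB lost its call without either of the Ac arrays, and CG31219 was the member still called in both of those fits, which leave 1 Ac array.

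Against Sens, 5 members rose, where 0.725% of all probe sets did, and 1 fell, where 1.01% did. Of the 1-gene probe sets with an m3 mean of at least 5, 0.539% rose and 1.86% fell. The 6 are 12.8% of members against 1.74% of probe sets, with a median difference of 0.06 for members and 0.03 for all probe sets. Among probe sets measured on all arrays, the medians were 0.45 for the 24 members and −0.09 for all. With probe sets of a mean under 5 left out, they were 0.34 for 33 members and −0.09 for all. At an unadjusted p under 0.05 there were 18 members (38.3%), against 24.3% of probe sets. CG31219 rose by 2.12 (SE 0.16, limma adjusted p = 4.67e-05) and MtnB by 4.11 (SE 0.64, adjusted p = 0.0113). Npc2b rose by 0.64 (SE 0.12, adjusted p = 0.0192), CG7695 by 0.81 (SE 0.13, adjusted p = 0.0203) and rdhB by 1.11 (SE 0.24, adjusted p = 0.0431). The rdhB levels were 5.70 and 6.61 on the Ase+m3 arrays, 5.56 and 5.54 on the Ac arrays and 5.04 and 5.05 on the Sens arrays. Ase+m3 replicate 1 was near the Ac arrays, and replicate 2 was above all others. CG13361 fell by 2.04 (SE 0.37, limma adjusted p = 0.0247), since its Sens arrays were at the m3 level.

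Without the array labelled Sens replicate 1, 2 members were called against Sens, both higher, where 0.501% of all probe sets were called. CG31219 and Npc2b (limma adjusted p = 0.0143 for Npc2b) were still called, and MtnB, CG7695, CG13361 and rdhB were not. All but Npc2b lack a value on Sens replicate 3, so this fit leaves them 1 Sens array. A call kept or lost by these genes therefore cannot be laid to the label. Their differences were 2.07 for CG31219, 4.05 for MtnB, 0.87 for CG7695, −1.65 for CG13361 and 1.11 for rdhB, each in its earlier direction. Without Ase+m3 replicate 2, 6 members rose and 2 fell against Sens, but 3.78% of all probe sets were called in that fit, against 1.74% with it. The call of rdhB was lost in 14 of the 19 fits that leave out 1 array, some of which leave it 1 Sens or Ase+m3 array. That of Npc2b was lost in 3, without Sens replicate 2 (limma adjusted p = 0.0758), Sens replicate 3 (0.0546) or Ase+m3 replicate 2. MtnB, CG7695 and CG13361 lost theirs without Sens replicate 1 or 2, and each of these fits leaves them 1 Sens array. Leaving out any 1 of the 19 arrays did not end the call of CG31219 against Ac or Sens, though some of these fits leave it 1 array in a group.

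Sens and Ac did not separate members by this test, as 0 were called by limma, where 0.0799% of all probe sets were. At an unadjusted p under 0.05 there were 5 members (10.6%), CG13361, CG7695, Rbm13, Dci and unpg, against 8.19% of all probe sets. CG13361 had the smallest p, with a Sens minus Ac difference of 2.14 (SE 0.37, adjusted p = 0.0715). Rbm13 stood at 6.76 on the Sens array that went against its label and at 5.87 and 5.82 on the other Sens arrays, against 6.98 and 6.76 on the Ac arrays. Without that array the Sens minus Ac difference of Rbm13 was −1.02 (limma adjusted p = 0.000757), and with it −0.72 (adjusted p = 0.277).

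By size alone, Ase+m3 lay at least 0.5 above the mean of Ac and Sens in 10 members (21.3%), against 3.02% of all probe sets and 3.23% of the 1-gene probe sets with an m3 mean of at least 5. These were MtnB, CG31219, CG15353, rdhB, Nplp4, CG4115, CG32212, CG13639, Idgf3 and Npc2b. It lay at least 0.5 below in 7 members (14.9%), against 7.85% of all probe sets and 16.9% of the bright ones, which makes the lower share near the background. The upper count leaned on 1 array: it was 8 members for Ase+m3 replicate 1 and 18 for replicate 2, against 6.75% and 5.50% of all probe sets. CG31219, CG15353 and MtnB, 3 members, passed on both. The share of all probe sets that passed on both was not computed, so this count has no background to be read against. The count by group means was 10 as well without the array labelled Sens replicate 1, against 2.82% of all probe sets.

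Both Ase+m3 arrays lay above all Ac and Sens arrays in 7 members (14.9%), against 13.3% of all probe sets and 6.9% of the bright 1-gene ones. Only MtnB (gap 3.32) and CG31219 (gap 1.76) were far apart, while Npc2b (0.26), rdhB (0.13), Sema5c (0.09), dnt (0.05) and CG15279 (0.04) were separated by little. Both arrays lay below in 3 members (loh, CG33465 and CG40486), against 10.4% of all probe sets and 18.6% of the bright ones. The Ase+m3 mean lay below the m3 mean in 44 members, with a median of −0.65, against 0.04 for all probe sets, a direction that choosing genes high in m3 favours. The exceptions were MtnB, rdhB and CG4115.

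**Figure D3:**
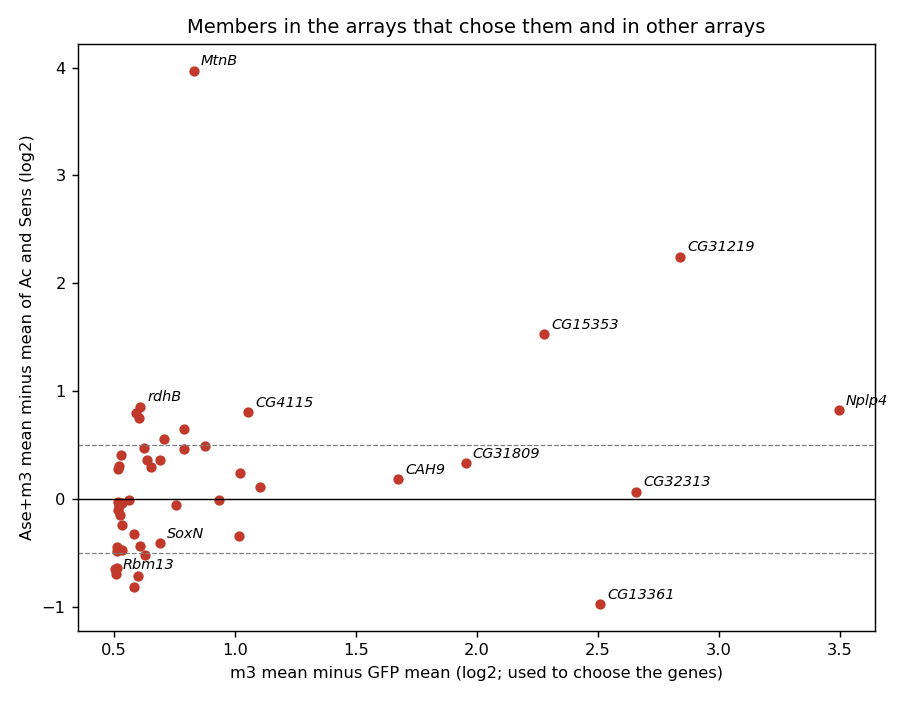
Ase+m3 mean minus the mean of Ac and Sens (vertical axis, log2, arrays the rule did not use) against m3 mean minus GFP mean (horizontal axis, log2, used to choose the genes), with a point for each of the 47 members and dashed lines at 0.5 above and below 0. MtnB and CG31219 stand above the rest, CG32313 lies near 0 although its m3 minus GFP difference is 2.66, and CG13361 is the lowest.

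The differences from GFP in the unused groups share the GFP arrays with the choice and are given as values only. Ase+m3 was at least 0.5 above GFP in 11 members, against 4.03% of all probe sets, with a median of 0.15 for members and 0.07 for all. Ac was at least 0.5 above GFP in 4 members, Rbm13, CG33465 (0.61), CG4115 (0.60) and rdhB (0.55), against 1.22% of all probe sets, with a median of 0.05 for members. Sens was so in 1 member, CG13361 (2.28), against 1.16% of all probe sets, with a median of 0.03 for members.

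The Ase+m3 arrays also differed from each other by gene length, taken as the span of the transcription unit in RefSeq, found for 46 members. Over the members, replicate 2 minus replicate 1 had a Spearman correlation with span of −0.25, and over all 1-gene probe sets −0.21, as a description of these 2 arrays. The 12 members among the shortest genes (spans under 1363 bp, the lower quartile of the 1-gene probe sets) had a median difference of 0.51, against −0.04 for all such genes. The 10 members among the longest genes (spans over 7292 bp, the upper quartile) had −0.23, against −0.20 for all such genes. The part of this in the Ase+m3 values of the members was not tested beyond the fit with the length trend removed, in which 6 members were called against Ac, where 2.64% of probe sets were, and 9 against Sens, where 4.47% were.

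Some members moved together within groups. Taking each array's deviation from its group mean over 19 arrays, CG15353 followed Nplp4 with r = 0.91, spz3 with 0.87, CG14572 with 0.81, CG4115 with 0.77 and CG7497 with 0.73. Without the m3 arrays, over 16 arrays, these were 0.91, 0.83, 0.73, 0.68 and 0.71. Of the 23 other members on all arrays 5 reached 0.7, where 0.577% of 7283 probe sets did. Without m3, 5 did, where 0.714% did, with dnt (0.75) in place of CG4115. The points share arrays, dissection and normalization, so these are descriptions of arrays. The spread was wide, as Nplp4 ran from 5.15 to 7.98 within Ac+Sens and CG15353 from 6.22 to 10.81. CG15353 and Nplp4 are also neighbours, with 1 gene between them in the RefSeq annotation. CG14572 and CG14564 have 2 genes between them, and CG4650 and CG15279 have 7.

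**Figure D4:**
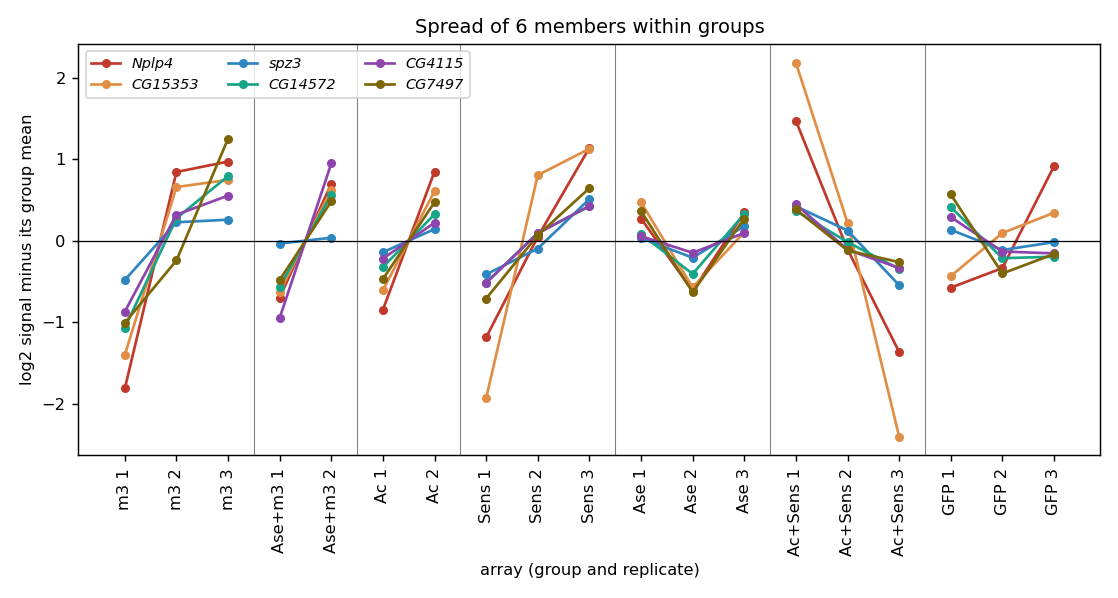
Log2 signal minus the group mean (vertical axis) of 6 members on each of the 19 arrays (horizontal axis), with lines joining the arrays of a group, which have no order. Nplp4 and CG15353 have the widest spread and the other 4 genes mostly deviate to the same side, as on m3 replicate 1 and the array labelled Sens replicate 1, where all 6 lie below their group mean.

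Genes of the pathway in which E(spl)m3-HLH acts were set beside the members. Lists of E(spl) complex and related repressors, Bearded family genes and Notch pathway genes held 31 measured genes, and no member was among them. Of these, 0 were called by limma in m3 minus GFP, where 0.341% of all probe sets were, and 0 in Ase+m3 minus Ac, where 1.07% were. At an unadjusted p under 0.05 there were 5 in m3 minus GFP, where 11.9% of all probe sets were, and 11 in Ase+m3 minus Ac, where 22.4% were. The list medians of m3 minus GFP were 0.05 for the E(spl) list, −0.40 for the Bearded list and 0.20 for the Notch list, against 0.05 for all probe sets. E(spl)m7-HLH was at 10.06 ± 0.21 in m3 and 10.29 ± 0.12 in GFP, E(spl)mbeta-HLH at 9.96 ± 0.13 in m3 and 10.10 ± 0.10 in GFP, and E(spl)mdelta-HLH at 10.34 ± 0.06 in m3 and 10.38 ± 0.09 in GFP (SD, n = 3 each). E(spl)m5-HLH was at 4.28 ± 0.16 in m3 and 4.19 ± 0.13 in GFP (SD, n = 2 and 3).

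Markers of the cells a notum can hold were summed over the genes of each list measured on all arrays, and no member was on these lists. The sums are of signals off the log2 scale, given as log2 of the sum, so the brightest genes of a list weigh most. The notum epidermis markers summed to 12.44 to 12.62 in m3, 11.61 to 12.41 in Ase+m3 and 12.27 to 12.54 in GFP, over 10 of 10 measured genes. The haemocyte markers summed to 9.13 to 9.31 in m3 and 9.04 to 9.06 in GFP, over 3 of 8 genes, with no overlap. The other groups lay above GFP too, at 9.13 to 9.46 in Ase+m3, 9.15 to 9.71 in Ac and 9.08 to 9.65 in Sens. Ase was at 9.28 to 9.42 and Ac+Sens at 9.21 to 10.08. Over all 8 haemocyte genes the median m3 minus GFP difference was −0.03, and 0 had an unadjusted limma p under 0.05. The glia markers, at 11.25 to 11.52 in m3 and 11.09 to 11.28 in GFP over 4 of 5, overlapped. Muscle and myoblast (12.65 to 12.77 in m3 and 12.41 to 12.66 in GFP, over 11 of 14), fat body (12.42 to 12.67 in m3 and 12.06 to 12.82 in GFP, over 5 of 6), trachea (11.71 to 12.20 in m3 and 12.17 to 12.44 in GFP, over 5 of 6) and neuron markers (9.41 to 9.65 in m3 and 8.98 to 9.63 in GFP, over 3 of 7) overlapped between m3 and GFP. The neuron markers ran from 7.03 to 9.30 in Ase+m3. Listed at 0 on all 4 arrays with zeros were the haemocyte markers Hml, eater, He and Sr-CI, the neuron markers nSyb, brp, para and fne, the muscle markers ct, TpnC4 and TpnC41C, and Yp1, btl and alrm of the fat body, trachea and glia lists. Of the 56 measured markers, 0 were called by limma in m3 minus GFP, where 0.341% of all probe sets were. At an unadjusted p under 0.05 there were 5, where 11.9% of all probe sets were. The part of other cell types in the members' values was not tested.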

How the data were processed

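RNA was measured on Affymetrix arrays in 19 samples of 7 groups, taken from the sample titles. The values deposited by the authors are log2 signals summarised per probe set with RMA, per the submitters' processing notes, which give no version. Values at exactly 0, found on 4 arrays, were treated as missing, and their rule is unknown. Gene names came from GEO's annotation of the platform (13647 with 1 gene, 402 with several, 4720 with none named here), and gene spans and neighbours came from a RefSeq table. Detection calls and scan dates were not used, so background and batches were not tested.

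The rule for members was applied to group means. NT5E-2 and Nepl20, set aside by the rule, did not meet it, since their Ase minus GFP differences were 0.38 and 0.33. Contrasts were fitted in R 4.3.3 by limma 3.58.1 with 1 mean for each of the 7 groups over 19 arrays, no covariate and no filter. P-values were two-sided and adjusted by Benjamini-Hochberg over all probe sets of a contrast, and 0.05 was the threshold. Adjusted p-values beside an n under 10 come from this model. The labels speak of biological replicates, and the number of arrays, 2 or 3 per group, limits the precision. The script was tested on simulated data. At most 10 nonzero values were identical between a pair of arrays, so each array counted as 1 sample.

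The genes named are the 15 members with the largest m3 minus GFP difference, all called members, those at the bounds of the rule, those whose Ase+m3 arrays lay above all Ac and Sens arrays, E(spl) genes, and others by role. Members, lists and contrasts were chosen with earlier results of these data known. Alternatives covered missing values, normalization, gene length, dim probe sets, pairing, the arrays in the fit, single arrays, variance settings and the bound of the rule.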

Additional observations from a re-analysis of the deposited data

How the results depend on the processing

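Members called in Ase+m3 minus Ac numbered 4. The count was 1 of 24 members with only probe sets measured on all arrays, where 0.741% of probe sets were called. It was 1 of 33 with probe sets of a mean under 5 left out, against 0.873%. It was 1 with only Ac, Sens and Ase+m3 arrays in the fit, against 0.0426%, and 2 under a replicate block, against 0.384%. In Ase+m3 minus Sens the count was 6. Among probe sets measured on all arrays it was 1 of 24 members, against 5.27% of probe sets, so near that share. With a mean under 5 left out it was 3 of 33, against 4.92%. It was 1 with only these groups, against 0.0639%, and 5 with the replicate block, against 0.527%. In Sens minus Ac it was 0. It was 1 without the 4 arrays with most zeros, against 0.0799% of probe sets, and 1 with quantile normalization repeated, against 0.123%. Leaving out 1 array at a time gave 1 to 16 members against Ac, 1 to 17 against Sens and 0 to 1 for Sens minus Ac. The counts of 16 and 17 came without Ase+m3 replicate 1, where 17.1% of all probe sets were called in each contrast, the count of 1 against Ac without either Ac array, and that of 1 against Sens without Sens replicate 2. With only the 3 groups in the fit, CG31219 had limma adjusted p = 0.0739 against Ac and 0.0864 against Sens, so its call ended there. The 1 member called in each of these contrasts was thus another gene. Deviations of same-numbered arrays had a median correlation of −0.003 over 52 pairs, from −0.42 to 0.55, with 15 above 0.1. The numbers were not taken as pairs. The 4 arrays with zeros are all replicate 3, and whether some same-numbered arrays shared handling was not tested. The rule chose 47 genes, 24 with probe sets measured on all arrays, 81 with a bound of 0.4 and 18 with 0.7. Without 1 array at a time it chose 38 to 84, of which 28 (without GFP replicate 3) and 42 (without m3 replicate 1) were among the 47. Called pathway genes stayed at 0 in m3 minus GFP, and ran from 0 to 10 in Ase+m3 minus Ac, the 10 without Ase+m3 replicate 1. No called member changed direction in the contrast that called it. The causes of these changes were not tested. Most member calls depend on 2 arrays a group, and the 15 members with 2 m3 arrays are the least certain.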

Other observations

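NT5E-2, for a nucleotidase, and Nepl20, for a neprilysin-like peptidase, share the level pattern of CG31219 although neither is a member. NT5E-2 had means of 5.86 in m3, 5.88 in Ase+m3, 3.40 in Ac, 3.70 in Sens and 3.34 in GFP. Nepl20 had means of 5.72 in m3, 6.38 in Ase+m3, 3.29 in Ac, 3.58 in Sens and 3.52 in GFP. Among the list genes, the cytochrome P450 genes Cyp4p1 and Cyp4p2 were lower in m3 than in GFP, by log2 differences of −3.45 and −4.58 (limma adjusted p = 2.95e-11 and 1.27e-12, Benjamini-Hochberg over all probe sets).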
